A study of Mus musculus with 2 samples.

Results

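The genes described here are 9 inhibitory receptor genes and Tox in cells sorted from mice whose Foxp3 locus drives Cre recombinase and yellow fluorescent protein (Foxp3Cre-YFP). The members were chosen by symbol: Pdcd1 (PD-1), Lag3, Havcr2 (TIM-3), Tigit, Cd160, Btla, Cd200, Cd200r1, Cd244 (2B4) and Tox. All 10 were found among the 27998 genes counted. They were followed in 1457 cells of B16 tumour and in 2202 cells of lymph node, the barcodes of each library that passed limits on depth, mitochondrial share and the transcripts of melanoma cells, macrophages and B cells. Both groups were wild-type Foxp3Cre-YFP mice of the C57BL/6 strain, 5 to 8 weeks old. The first group carried B16 melanoma, a transplantable tumour of that strain, taken at day 14, and the second gave lymph node without challenge. There was 1 library per group, profiled by droplet sequencing of transcript 3′ ends with unique molecular identifiers (UMIs). The sort gate and the number of mice behind each library are not stated in the labels. Since each group is 1 library, no difference between the tissues has a replicate check, no test was made, and every interval given is a 95% interval that covers counting error only.

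Inhibitory receptors dampen signalling from the T cell receptor and CD28 once they meet their ligands on neighbouring cells, in many cases through phosphatases recruited to tyrosine motifs in their tails. Regulatory T cells (Treg cells) carry several of them after activation, and in CD8 T cells that face lasting antigen their joint expression accompanies exhaustion, a state whose programme in the mouse depends on the nuclear protein TOX. Cd200 stands apart in this group, since it encodes the ligand of the receptor encoded by Cd200r1.

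The members lie on 6 chromosomes of mouse build mm10 (coordinates from GENCODE M21, GRCm38). Pdcd1 (ENSMUSG00000026285) spans chromosome 1 from 94038305 to 94052553 on the minus strand, Lag3 (ENSMUSG00000030124) chromosome 6 from 124904361 to 124911705 on the minus strand, and Havcr2 (ENSMUSG00000020399) chromosome 11 from 46454935 to 46481255 on the plus strand. Chromosome 16 holds 4 members within 1.76 Mb: Tigit (ENSMUSG00000071552, 43648867 to 43664146, minus strand), Cd200r1 (ENSMUSG00000022667, 44765736 to 44794978, plus strand), Btla (ENSMUSG00000052013, 45224315 to 45257670, plus strand) and Cd200 (ENSMUSG00000022661, 45382135 to 45409053, minus strand). Cd160 (ENSMUSG00000038304) spans chromosome 3 from 96798763 to 96829351 and Tox (ENSMUSG00000041272) chromosome 4 from 6686353 to 6991557, both on the minus strand. Cd244 (ENSMUSG00000004709, named Cd244a in the annotation) spans chromosome 1 from 171559193 to 171609746 on the plus strand. Cd160, Cd244 and Tox overlap a gene on the opposite strand, Pdzk1, Ly9 and Gm11802. Pdzk1 and Gm11802 had at most 2 UMIs in either library, but Ly9 had 916 UMIs in tumour and 472 in lymph node, and no source used here says whether counting used the strand, so that the few Cd244 UMIs are uncertain.

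Promoter sequences of RefSeq (GRCm38.p6, 250 bases before to 50 after the start) were available for 7 of the 10 members. Those of 2 receptor genes that were higher in tumour, Pdcd1 and Havcr2, and of 2 that were lower, Btla and Cd200, are shown because the levels of these genes differed in opposite directions between the tissues. Capitals mark matches, on either strand, of GGAAA, the core bound by NFAT factors downstream of the T cell receptor, and of TGANTCA, the element bound by AP-1.
Pdcd1 (chr1:94052504-94052803, minus strand): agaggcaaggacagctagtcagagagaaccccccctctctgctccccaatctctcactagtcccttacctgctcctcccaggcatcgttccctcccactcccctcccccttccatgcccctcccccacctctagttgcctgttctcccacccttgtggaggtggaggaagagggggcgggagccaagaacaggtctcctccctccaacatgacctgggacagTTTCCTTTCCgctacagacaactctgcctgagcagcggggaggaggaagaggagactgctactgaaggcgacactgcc
Havcr2 (chr11:46454681-46454980, plus strand): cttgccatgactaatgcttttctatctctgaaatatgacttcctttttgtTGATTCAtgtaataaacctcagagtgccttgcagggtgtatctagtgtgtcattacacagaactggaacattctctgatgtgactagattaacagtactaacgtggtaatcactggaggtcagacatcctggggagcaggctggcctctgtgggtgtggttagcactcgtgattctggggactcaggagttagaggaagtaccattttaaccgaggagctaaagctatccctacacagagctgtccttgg
Btla (chr16:45224087-45224386, plus strand): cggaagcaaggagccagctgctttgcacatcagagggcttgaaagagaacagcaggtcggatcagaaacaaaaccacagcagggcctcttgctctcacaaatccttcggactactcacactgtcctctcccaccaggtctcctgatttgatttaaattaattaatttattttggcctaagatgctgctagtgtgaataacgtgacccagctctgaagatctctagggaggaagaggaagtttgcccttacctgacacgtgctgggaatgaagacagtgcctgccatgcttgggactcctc
Cd200 (chr16:45409004-45409303, minus strand): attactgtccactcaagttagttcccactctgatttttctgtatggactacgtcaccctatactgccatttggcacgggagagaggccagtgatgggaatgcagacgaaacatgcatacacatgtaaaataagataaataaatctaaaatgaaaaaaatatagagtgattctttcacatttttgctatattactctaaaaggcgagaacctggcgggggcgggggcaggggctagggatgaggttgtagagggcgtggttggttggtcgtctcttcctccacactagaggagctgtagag
The Pdcd1 window held 2 matches of GGAAA, 28 and 23 bases before the start, and the Havcr2 window 1 match of TGANTCA, 200 bases before it. The Btla and Cd200 windows held neither run of letters. Of 32851 mouse promoters in the table, 61.3% held GGAAA and 7.81% held TGANTCA, so that the first match in particular is common. Also searched, on both strands, were CANNTG (72.3% of all promoters), TGACGTCA (1.79%), AAAGGTCA (1.51%) and CTTTGAT (3.73%). The last 3 had no match in the windows of the 7 members. CANNTG had none in those of Pdcd1 and Havcr2 and 2 each in those of Btla and Cd200. The windows not printed did not follow this split. Tigit, higher in tumour, held 2 matches of GGAAA and 2 of CANNTG. Cd160, lower in tumour, held 3 of CANNTG in its first entry, and 1 of GGAAA and 1 of CANNTG in its second. Cd244 held 2 of GGAAA, 1 of TGANTCA and 3 of CANNTG. A match describes the letters only.

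The cells were deeper in tumour, with a median of 8766 UMIs and 2441 genes per cell, than in lymph node, with 4100 UMIs and 1335 genes, and held 16669263 and 10681101 UMIs in all. Because of this gap, shares of cells are compared after each cell was thinned at random to 1811 UMIs, the lymph node limit, which kept every cell of both libraries. The labelled cell type was checked against 10 Treg markers, all of which were detected in both libraries, at a summed 4866 CPM (counts scaled to a total of 1000000) in tumour and 2688 CPM in lymph node. Foxp3 itself was sparse, with UMIs at full depth in 16.8% of the tumour cells against 9.58% in lymph node, while Ikzf2 stood at 97.6% and 72.6%. These shares were not thinned, so the deeper tumour cells raise them. Scaled to the totals, Foxp3 stood at 17.2 CPM in tumour and 21.9 CPM in lymph node, and Ikzf2 at 1038 and 725 CPM. The defining CD8 gene Cd8a had no UMI in either library. Cd8b1 UMIs at full depth lay in 16.8% of the tumour cells against 7.58% in lymph node, at 19.5 and 17.6 CPM. The B16 marker list stood at 34.1 CPM in tumour and 0.749 CPM in lymph node, in cells already limited in UMIs of Pmel, Dct and Mlana. The 2 libraries shared 1 cell barcode.

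Of the 10 members 6 were at least 2-fold higher in tumour, 3 were at least 2-fold lower (Cd160, Btla and Cd200) and 1, Tox, lay between. Among 9976 genes with at least 50 UMIs, 13.2% were at least 2-fold higher and 7.7% at least 2-fold lower, 20.9% in all. The median log2 ratio was 1.30 over the members and 0.14 over all these genes. For 5 of the 6 higher members and for all 3 lower members the whole interval lay beyond 2-fold, against 8.8% of all genes upwards and 4.17% downwards. All members but Cd244 had at least 50 UMIs.

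Pdcd1, Lag3, Havcr2 and Tigit were all higher in tumour cells. Pdcd1, whose product recruits the phosphatase SHP-2, had 3152 UMIs in tumour and 452 in lymph node, or 189 and 42.3 CPM, a 4.47-fold difference (4.05 to 4.94). Lag3, which encodes a CD4-like receptor for MHC class II, had 2976 UMIs in tumour and 203 in lymph node, 179 and 19.0 CPM, and was 9.39-fold higher (8.15 to 10.9). Havcr2 had 479 UMIs in tumour and 27 in lymph node, 28.7 and 2.53 CPM, and was 11.4-fold higher (7.72 to 17.4). Tigit, which competes with the activating receptor CD226 for nectin-family ligands, had 148 UMIs in tumour and 25 in lymph node, 8.88 and 2.34 CPM, and was 3.79-fold higher (2.47 to 6.05). The 4 genes kept this direction under all 11 alternatives run, but their size moved with the choice of cells. In cells with a Foxp3 UMI (244 in tumour and 211 in lymph node) Lag3 was 4.65-fold and Tigit 2.35-fold higher, and without cells that held 3 or more mitotic UMIs Havcr2 was 21.4-fold higher.

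Cd160, Btla and Cd200 went the other way. Cd160, which encodes a small receptor for the herpesvirus entry mediator HVEM, had 32 UMIs in tumour and 120 in lymph node, 1.92 and 11.2 CPM, and was 5.85-fold lower (3.93 to 8.94). Btla, a second receptor for HVEM, had 160 UMIs in tumour and 356 in lymph node, 9.6 and 33.3 CPM, and was 3.47-fold lower (2.87 to 4.21). Cd200 had 397 UMIs in tumour and 706 in lymph node, 23.8 and 66.1 CPM, and was 2.78-fold lower (2.45 to 3.15). Its receptor gene Cd200r1 moved the opposite way, with 731 UMIs in tumour and 187 in lymph node, 43.9 and 17.5 CPM, or 2.51-fold higher (2.13 to 2.96). It was 3.94-fold higher without cells that held 3 or more mitotic UMIs and 1.998-fold higher in cells with a Foxp3 UMI, where 4 members were at least 2-fold higher and 4 at least 2-fold lower. Cd244, a receptor for CD48, had 19 UMIs in tumour and 5 in lymph node. Its ratio of 2.44 had an interval that included 1 (0.879 to 8.34), and it was reversed, at 0.273, in cells with a Foxp3 UMI. Tox had 1459 UMIs in tumour and 1396 in lymph node, 87.5 and 131 CPM, and was 1.49-fold lower (1.39 to 1.61).

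**Figure D1:**
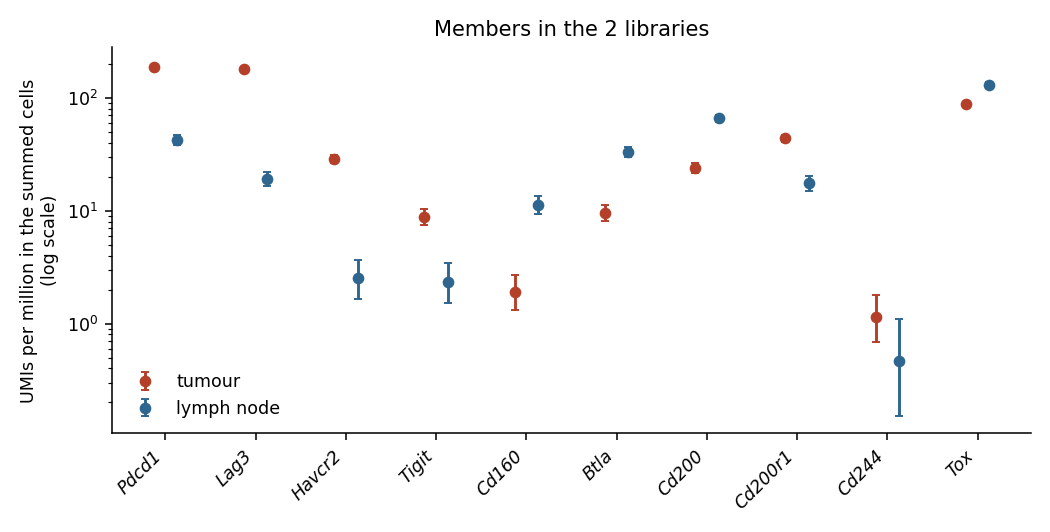
CPM in the summed cells (log axis) for the 9 receptor genes and Tox in the tumour library (red) and the lymph node library (blue), with exact Poisson 95% intervals. Pdcd1, Lag3, Havcr2, Tigit and Cd200r1 lie higher in tumour and Cd160, Btla, Cd200 and Tox lower, while the intervals of Cd244 overlap.

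UMIs of Pdcd1 and Lag3 per cell were counted at full depth, where tumour cells were deeper (median 8766 against 4100 UMIs), without thinning. Of 1457 tumour cells 442 held 3 or more Pdcd1 UMIs and 358 held 3 or more Lag3 UMIs, with up to 21 and 39 UMIs in 1 cell. Of 2202 lymph node cells 41 and 16 did, with up to 14 and 12 UMIs. The top 1% of cells held 12.8% of the Lag3 UMIs in tumour and 41.4% in lymph node, and 7.52% and 22.8% of the Pdcd1 UMIs. Of the members lower in tumour, Cd160 had 10 of its 120 lymph node UMIs in 1 cell.

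At 1811 UMIs per cell, Pdcd1 was found in 26.6% of tumour cells (24.4 to 29.0) and 5.86% of lymph node cells (4.91 to 6.92), and Lag3 in 21.3% (19.2 to 23.5) and 3.50% (2.77 to 4.35). The share for Havcr2 was 5.15% in tumour against 0.227% in lymph node, for Tigit 1.92% against 0.363%, and for Cd200r1 9.33% against 3.50%. The order was the reverse for Cd200, at 4.46% in tumour against 9.99% in lymph node, for Btla, with 1.58% and 5.86%, and for Cd160, with 0.275% and 1.73%. Cd244 was found in 2 cells of each library. The share for Tox was 14.8% in tumour (12.97 to 16.7) against 19.8% in lymph node (18.2 to 21.6). Without thinning, the shares were 64.5% and 13.2% for Pdcd1, 48.9% and 5.63% for Lag3, and 51.0% and 38.2% for Tox, so that Tox changed its order with depth. Among genes outside the list, the receptor gene Ctla4 stood at 59.4% in tumour against 15.0% in lymph node at equal depth, and Foxp3 at 4.19% and 4.22%.

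Free RNA was looked at in barcodes that should lack these genes. In 15 tumour barcodes set aside for melanoma transcripts, with a median of 70488 UMIs, the share expected at 1811 UMIs was 1.77% for Pdcd1, 0.888% for Lag3, 0.445% for Tigit, 0.510% for Cd200, 0.628% for Cd200r1 and 0.191% for Tox. The tumour cells, at a median of 8766 UMIs before thinning, lay above each of these. Havcr2, Cd160, Btla and Cd244 had no UMI in the 15 barcodes, which allows shares of barcodes with a UMI of up to 20%. Of these 15 barcodes 12 held a Cd3e UMI, so T cell RNA was in most of them. Barcodes with 1 to 50 UMIs, too few for a cell, held Pdcd1 at 177 CPM in tumour and 56.3 CPM in lymph node, Lag3 at 138 and 11.4 CPM, and Tox at 61.0 and 81.0 CPM. Of the members lower in tumour, Btla stood at 11.9 and 41.8 CPM there and Cd200 at 24.6 and 81.0 CPM. In lymph node 9 barcodes set aside for B cell transcripts held no UMI of Pdcd1, Lag3, Havcr2, Tigit, Cd160 or Tox, which allows shares of up to 33.3%.

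More receptor genes were found per cell in tumour. Counting the 9 receptors at 1811 UMIs, 47.8% of tumour cells (45.3 to 50.4) and 74.7% of lymph node cells (72.8 to 76.5) held none, 36.9% and 20.5% held 1, and 12.3% and 3.91% held 2. There were 37 tumour and 18 lymph node cells with 3 receptors and 6 and 2 cells with 4, the highest number seen at this depth. The mean was 0.708 receptors per tumour cell and 0.311 per lymph node cell. Over 100 random thinnings, an alternative added after seeing the data, it ranged from 0.667 to 0.755 in tumour and from 0.287 to 0.319 in lymph node. At 3834 UMIs, the tumour limit, all tumour cells and 1223 lymph node cells remained. The means were then 1.19 and 0.559, and 10.2% of tumour cells (8.65 to 11.8) and 1.80% of lymph node cells (1.13 to 2.71) held at least 3 receptors, with a highest number of 6 and 4.

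**Figure D2:**
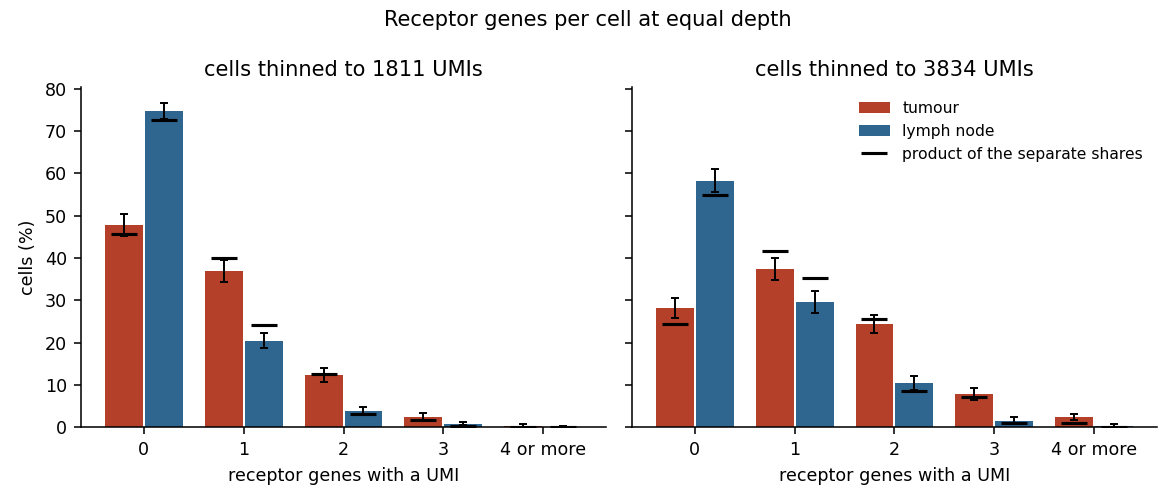
Share of cells (%) by the number of the 9 receptor genes with a UMI, in cells thinned to 1811 UMIs (left) and 3834 UMIs (right), for tumour (red) and lymph node (blue), with Clopper-Pearson 95% intervals. Black marks give the share that the product of the separate shares would give. In each library both the cells without a receptor and those with 3 or more stand above the marks, and cells with 1 stand below.

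The receptors were found together in the same cells more often than the product of their separate shares gives. At 1811 UMIs, 2.95% of tumour cells and 0.908% of lymph node cells held at least 3 receptors, against 1.88% and 0.221% from the product. Summed over the 36 pairs, the number of cells with both genes of a pair was 326 in tumour and 152 in lymph node, or 1.21 and 1.79 times the product. Pairs with the ligand gene Cd200 are part of these sums. Among them, Pdcd1 and Cd200 gave 18 cells in tumour and 31 in lymph node, and Btla and Cd200 gave 3 and 19. Over 100 thinnings this ratio ranged from 1.10 to 1.33 in tumour and from 1.46 to 2.08 in lymph node, and at 3834 UMIs it was 1.15 and 1.36. Among general T cell genes, Ptprc and Cd4, found in 51.3% and 30.3% of tumour cells and 52.6% and 19.8% of lymph node cells, gave 1.08 (0.948 to 1.22) in tumour and 1.09 (0.962 to 1.24) in lymph node. Paired with Cd4, receptors with at least 5 cells from the product gave 1.03 to 1.29 in tumour. In lymph node the ratios with Cd4 were 1.73 for Cd160, 1.53 for Pdcd1, 1.25 for Lag3 and 1.22 for Cd200. They were 0.903 for Btla and 0.789 for Cd200r1. Commoner genes such as Cd3g, at 89.7% of tumour cells, hold this ratio near 1 whatever their pattern and give no scale. Doublets were not called, and once the deepest 5% of cells were left out the receptor ratio was 1.18 in tumour and 1.65 in lymph node. All of these values describe cells of 1 library each.

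In tumour the pair with most cells was Pdcd1 and Lag3, found together in 99 cells against 82.6 from the product, or 1.20 times (0.975 to 1.46). At 3834 UMIs it was found in 240 cells against 203, or 1.18 times (1.04 to 1.34). Lag3 and Havcr2 were found together in 25 tumour cells against 15.96, or 1.57 times (1.01 to 2.31), and at 3834 UMIs in 71 against 49.3, or 1.44 times (1.12 to 1.82). Lag3 and Cd200r1 gave 1.24 at both depths, with an interval of 1.01 to 1.5 at the deeper one. The 4 pairs of Pdcd1 or Lag3 with Btla or Cd200 lay at 0.868 to 0.922 at 3834 UMIs and at 0.795 to 1.31 at 1811 UMIs, with intervals that included 1 throughout. Averaged over all thinnings they lay at 0.774 to 1.01 and at 0.795 to 1.03. Of 12 tumour pairs with at least 5 cells from the product at 1811 UMIs, 10 lay above 1 and 2 below, with ratios from 0.795 to 1.57, and of 19 such pairs at 3834 UMIs 11 lay above and 8 below, with ratios from 0.595 to 1.88.

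In lymph node Pdcd1 and Cd200 were found together in 31 cells against 12.9, or 2.41 times (1.63 to 3.41). Averaged over all thinnings the ratio of this pair was 1.87, and at 3834 UMIs it was 1.35 (0.937 to 1.89). Pdcd1 and Lag3 were found together in 13 lymph node cells against 4.51, or 2.88 times (1.53 to 4.93), and at 3834 UMIs in 13 against 5.19, or 2.50 times (1.33 to 4.28). Btla and Cd200, both lower in tumour, were found together in 44 lymph node cells against 28.5 at 3834 UMIs, or 1.54 times (1.12 to 2.07), and 1.32 times averaged over all thinnings. Lag3 and Btla had no steady direction, at 0.340 (0.0411 to 1.23) at 3834 UMIs and 0.887 (0.242 to 2.27) at 1811 UMIs, and at 0.862 and 1.17 over all thinnings. The difference between the tissues in these ratios was not tested.

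**Figure D3:**
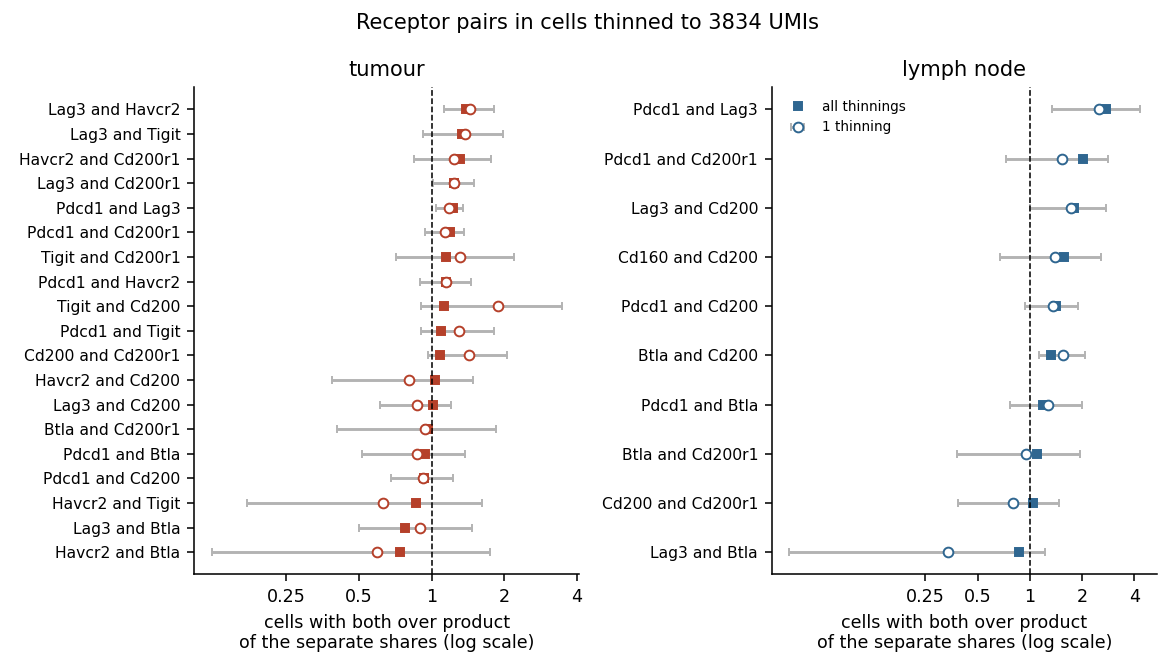
Cells that held both genes of a receptor pair over the product of the separate shares (log axis) at 3834 UMIs, for pairs with at least 5 cells from the product, in tumour (left) and lymph node (right). Open circles give 1 thinning with its 95% interval, filled squares the mean over all thinnings, and the dashed line marks 1. By the mean over all thinnings, Lag3 and Havcr2 stand highest in tumour, and Pdcd1 and Lag3 in lymph node.

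Tox, lower in tumour as a whole, was higher in cells with more receptors in both libraries, taken over all their cells. At 1811 UMIs, tumour cells with 0, 1, 2 and at least 3 receptors held 0.123, 0.190, 0.229 and 0.395 Tox UMIs per cell, and lymph node cells 0.208, 0.319, 0.558 and 0.850. A Tox UMI was found in 11.3%, 16.7%, 18.4% and 30.2% of these tumour cells and in 17.3%, 23.3%, 40.7% and 65.0% of the lymph node cells. Cells with at least 2 receptors held 2.12 times (1.49 to 2.99) as many Tox UMIs as cells with none in tumour, from 222 and 697 cells, and 2.95 times (2.23 to 3.86) in lymph node, from 106 and 1645 cells. Cells with at least 3 receptors held 3.20 times (1.79 to 5.43) in tumour, from 43 cells, and 4.09 times (2.35 to 6.64) in lymph node, from 20 cells.

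The size of the Tox difference depended on the thinning, above all for the few cells with at least 3 receptors. Over 100 random thinnings, added after the first values were seen, the ratio for at least 3 receptors averaged 2.11 in tumour (range 0.796 to 3.92, above 1 in 99) and 3.41 in lymph node (range 1.03 to 5.79). The ratio for at least 2 receptors averaged 1.74 in tumour (1.13 to 2.50) and 2.76 in lymph node (2.09 to 4.10), and at 3834 UMIs 1.67 (1.35 to 2.22) and 2.63 (2.18 to 3.07). General T cell genes were also somewhat higher in cells with at least 2 receptors, at averages of 1.16 in tumour and 1.45 in lymph node for Cd3e and 1.34 and 1.5 for Cd3g. Before thinning, tumour cells with at least 3 receptors and with 0 at 1811 UMIs had medians of 7148 and 9361 UMIs, and lymph node cells 3721 and 4103. At 3834 UMIs these medians were 7719 and 8915 in tumour and 6031 and 5128 in lymph node, where cells with more receptors were thus deeper before thinning. In cells with a Foxp3 UMI, thinned anew, the ratio for at least 3 receptors was 1.22 in tumour and 1.30 in lymph node. They rest on the 4.51% of 244 tumour cells and the 2.37% of 211 lymph node cells that held at least 3 receptors. No redraws were made within these smaller sets, and the ranges over redraws of all cells give no spread for them.

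**Figure D4:**
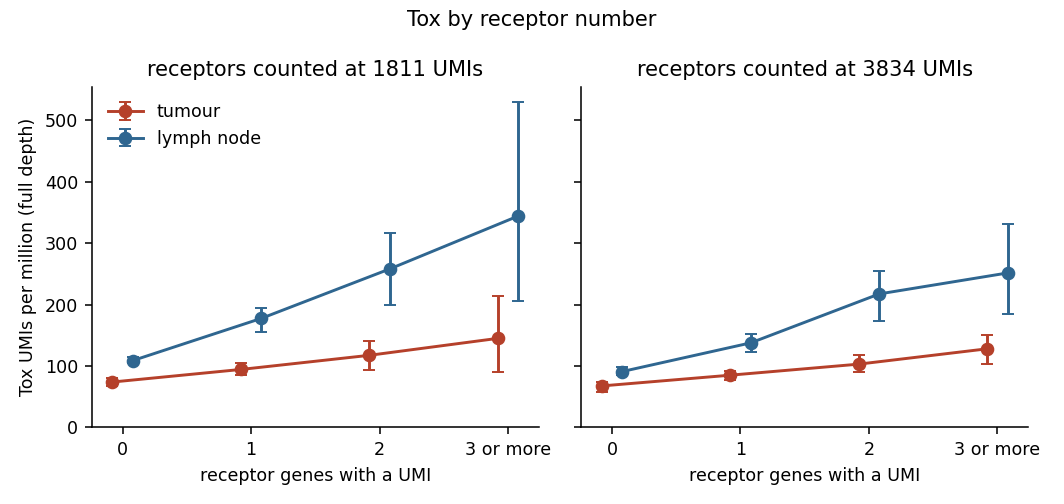
Tox CPM at full depth in cells grouped by the number of receptor genes found at 1811 UMIs (left) or 3834 UMIs (right), for tumour (red) and lymph node (blue). Points are means of 100 random thinnings and bars their lowest and highest values, which are not errors over animals. In each panel Tox is higher in cells with more receptors, and lower in tumour than in lymph node at the same number.

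At the same receptor number Tox was lower in tumour. Relative to lymph node cells it was 1.69-fold lower (1.33 to 2.16) in tumour cells with no receptor, 1.68-fold lower (1.30 to 2.19) in cells with 1 and 2.35-fold lower (1.62 to 3.40) in cells with at least 2. At 3834 UMIs these values were 1.41, 1.42 and 2.38. Taken receptor by receptor, tumour cells with Lag3 held 1.78 times (1.35 to 2.34) the Tox of cells without it, and 1.71 times (1.43 to 2.04) at 3834 UMIs. For Pdcd1 the ratio in tumour was 1.54 (1.17 to 2.0), and 1.20 (1.01 to 1.43) at 3834 UMIs. In lymph node it was 2.69 (2.09 to 3.42) for Pdcd1, 2.22 (1.57 to 3.05) for Lag3, 1.51 (1.17 to 1.92) for Cd200 and 1.65 (1.11 to 2.36) for Cd200r1. For Cd200 in tumour it was 1.39 at 1811 UMIs and 0.953 at 3834, with intervals that included 1 at both. For Havcr2, Btla, Cd160 and Cd244 the interval included 1 in at least 1 of the 2 depths in each library. For Cd200r1 in tumour it was 1.35 (0.889 to 1.98), and 1.49 (1.21 to 1.84) at 3834 UMIs. For Tigit the intervals included 1 except in lymph node at 3834 UMIs, where 11 cells gave 2.64 (1.44 to 4.47).

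Markers of other cell types were compared between cells with at least 2 receptors and cells with none. Treg markers were higher in the first as a sum, at 13 against 9.09 UMIs per cell in tumour and 8.39 against 4.51 in lymph node. In tumour the interval lay above 1 for Ikzf2, Ctla4, Tnfrsf18, Tnfrsf4 and Lrrc32. It included 1 for Foxp3 (1.12, 0.486 to 2.38), Il2ra, Ikzf4, Gpr83 and Izumo1r. In lymph node it lay above 1 for Foxp3 (2.39, 1.09 to 4.68), Ikzf2, Ctla4, Tnfrsf18, Tnfrsf4 and Izumo1r. It included 1 there for Il2ra, Ikzf4, Gpr83 and Lrrc32. The CD8 list of 6 genes stood at 3.17 against 1.30 UMIs per cell in tumour and 0.736 against 0.105 in lymph node. Nkg7, a granule protein gene also active in CD4 T cells, gave 693 of 703 and 868 of 907 of these UMIs in tumour and 77 of 78 and 114 of 173 in lymph node. Nkg7 was found in 73.4% against 47.8% of tumour cells and in 22.6% against 4.38% of lymph node cells, whereas Cd8a had no UMI in any of them and Cd8b1 stood at 3.15% against 3.30% in tumour and 0.943% against 3.28% in lymph node. The conventional CD4 list stood at 0.144 against 0.0631 UMIs per cell in tumour and 0.264 against 0.0827 in lymph node. In tumour Ifng gave 26 of 32 and 15 of 44 of these UMIs, a ratio of 5.44 (2.78 to 11.05). Lymph node ratios were 25.9 (5.03 to 166.6) for Il4, 6.21 (1.42 to 21.5) for Ifng and 3.54 (1.78 to 6.54) for Cd40lg. Il2 in both tissues and Cd40lg in tumour lay below 1, with intervals that included 1. The follicular genes of this list were sparse in lymph node, with a Cxcr5 UMI in 2.83% against 1.46% of cells (3 UMIs in 106 cells and 24 in 1645) and a Bcl6 UMI in 1.89% against 0.365%. Per cell their ratios were 1.94 (0.374 to 6.39) and 5.17 (0.511 to 28.9). The part of these marker lists in the receptor and Tox values was not tested.

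The members were then set against states cut from thinned UMI sums of fixed genes. Tumour cells with a UMI of the chemokine genes Ccl3 or Ccl4, 239 of them and 123 with a single UMI, held 0.979 receptors on average, and the other 1218 tumour cells 0.654. Lag3 was found in 36% (29.9 to 42.4) of the first and 18.4% (16.3 to 20.7) of the others, and Havcr2 in 11.7% (7.93 to 16.5) and 3.86% (2.85 to 5.10). Pdcd1 differed less, at 31.8% (25.9 to 38.1) and 25.6% (23.2 to 28.2), and Cd200r1 stood at 10.0% and 9.20%. In lymph node 1 cell held such a UMI, so no comparison was made there.

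Cells with at least 2 UMIs of a list of resting T cell genes, among them Ccr7, Tcf7 and Klf2, held fewer receptors in both tissues. In tumour 106 such cells, 62 of them with 2 UMIs, held 0.434 receptors on average, and the other 1351 cells 0.729. Lag3 was found in 6.60% of the first and 22.4% of the others. Havcr2 and Tigit were found in none of the 106, which allows shares of cells with a UMI of up to 2.83%, and in 5.55% and 2.07% of the others. Tox stood at 15.1% and 14.7%. In lymph node 1451 such cells, 390 of them with 2 UMIs, held 0.227 receptors and the other 751 cells 0.474. There Pdcd1 was found in 3.03% and 11.3%, Lag3 in 1.93% and 6.52%, Cd160 in 0.896% and 3.33% and Tox in 15.4% and 28.4%, but Btla in 5.72% and 6.13%. A small group of 41 lymph node cells, 18 of them at the limit of 2 UMIs, with early targets of T cell receptor signalling (Nr4a1 to Nr4a3 and Egr1 to Egr3) held Cd200 in 24.4% (12.4 to 40.3), against 9.72% (8.50 to 11) of the others. Cd160 stood at 9.76% and 1.57% there, and Tox at 36.6% (22.1 to 53.1) and 19.5% (17.9 to 21.3). In tumour 78 such cells, 51 of them at the limit, held Cd200 in 6.41% (2.11 to 14.3) and Tox in 10.3% (4.53 to 19.2), against 4.35% and 15.0% of the other tumour cells, and no Cd160, which allows a share of up to 3.85%. The 281 tumour cells with at least 3 mitotic UMIs after thinning, fewer than those left out above by the same number at full depth, held 0.552 receptors on average and other tumour cells 0.745, with Lag3 in 15.3% and 22.7%. In lymph node 44 such cells held 0.341 and the others 0.311. Among the 281 mitotic tumour cells the Tox ratio of at least 2 receptors over 0 was 1.06 (0.316 to 2.81). Other tumour cells gave 2.43 (1.65 to 3.56). In 478 tumour cells with at least 2 UMIs of interferon-response genes, 178 at the limit, it was 0.985 (0.387 to 2.23). The other 979 gave 2.59 (1.74 to 3.84). In the other tumour states it lay between 1.64 and 9.71, with intervals that included 1 except for resting cells (6.13, 1.89 to 19.3). These differences were not tested.

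**Figure D5:**
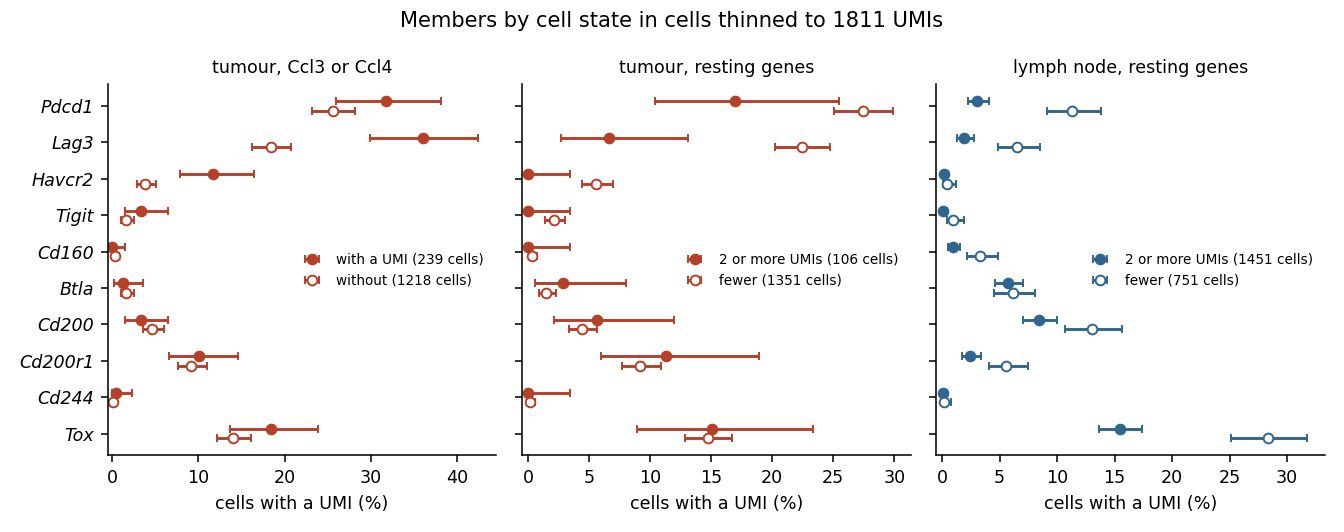
Share of cells (%) with a UMI of each member at 1811 UMIs, with Clopper-Pearson 95% intervals, for tumour cells with and without a Ccl3 or Ccl4 UMI (left), tumour cells by resting genes (middle) and lymph node cells by resting genes (right). Filled circles are the cells of the state and open circles the rest. Lag3 and Havcr2 are higher in cells with Ccl3 or Ccl4, and Pdcd1 and Lag3 are lower in cells with resting genes in both tissues. For Pdcd1 in tumour the intervals by resting genes overlap.

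Genes whose level followed the receptor number were ranked by the ratio of UMIs per cell in cells with at least 3 receptors over cells with none, among 4945 genes in tumour and 5964 in lymph node. In tumour the list was led by Ccl4 at 12.6 (10.4 to 15.4) and Ifng at 9.73 (3.75 to 23.7), followed by Gpm6b, Tceanc2, Nrn1, Csf1, Ilvbl, Ccr8, Cd9 and Lgals7. In lymph node it was led by Rgs16 at 19.7 (6.62 to 49.3), Cnrip1 at 19.0 and Penk at 17.8, followed by Marcksl1, Nr4a1, Malt1, Il1r2, Nkg7, Klf10 and Coq10b. These rest on 43 and 20 cells, and with another random seed 3 of the 10 genes were shared in each tissue. Ranked by the lower bound of the ratio in cells with at least 2 receptors, an order chosen after seeing the data, the tumour list was led by Ccl4 at 5.79 (4.92 to 6.81), Ccl1 at 5.43 and Ccl5 at 3.08. The lymph node list was led by Nkg7 at 10.5 (7.75 to 14.1), Il1r2 at 14.7 and Marcksl1 at 7.04. In this contrast the interval lay above 1 for 5.6% and below 1 for 4.95% of genes in tumour, and above 1 for 10.6% and below 1 for 2.78% in lymph node. In each tissue 27 genes, Tox included, had a lower bound at or above that of Tox.

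Ligand genes of the receptors were also measured in the sorted cells. Of 14 such genes 10 had at least 20 UMIs, with 5 of these higher in tumour by at least 2-fold, 5 between the limits and 0 lower (median log2 ratio 0.98). Over all genes with at least 50 UMIs, 13.2% were higher and 7.7% lower by this measure, with a median log2 ratio of 0.14. The MHC class II genes, whose products bind LAG-3, were led by H2-Ab1 at 36.6 CPM in tumour and 3.0 CPM in lymph node, 12.2-fold higher (8.56 to 18.0), with H2-Eb1 at 4.92-fold and H2-Aa at 4.85-fold. Lgals3, which encodes galectin-3, another ligand of LAG-3, was 6.13-fold higher (5.28 to 7.14). Of the PD-1 ligand genes, Pdcd1lg2 stood at 50.4 CPM in tumour and 23.7 CPM in lymph node (2.13-fold, 1.85 to 2.46) and Cd274 at 19.7 and 11.9 CPM (1.66-fold, 1.34 to 2.05). Cd48, which encodes the ligand of 2B4, stood at 314 and 187 CPM, and the HVEM gene Tnfrsf14 had 23 UMIs in tumour and 8 in lymph node. Macrophage markers, 7 of 8 detected in tumour and 2 of 8 in lymph node, summed to 3.54 and 0.655 CPM, with Adgre1 at 0 in both. B cell markers, 4 of 6 and 5 of 6 detected, summed to 9.66 and 18.0 CPM. The cell rule had limited the UMIs of C1qa, C1qb, Lyz2, Cd79a and Ms4a1, so these sums were in part set by it. Dendritic cell markers, which the rule did not limit, had 2 of 7 and 1 of 7 detected and summed to 0.84 and 1.22 CPM. The part of other cell types in the class II values was not tested.

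Among 13 measured adaptors and phosphatases downstream of the receptors, 1 passed 2-fold upwards and 0 downwards, with 12 between (median log2 ratio 0.10), beside 13.2% and 7.7% of all genes. Ptpn6 and Ptpn11, the genes of SHP-1 and SHP-2, stood at 105 and 20.3 CPM in tumour and 110 and 23.5 CPM in lymph node. The higher gene was Dok1, an adaptor gene, at 2.10-fold (1.84 to 2.40), with Dok2 at 1.63-fold and Grb2 at 1.66-fold. Sh2d1a, which encodes SAP, the adaptor that sets how 2B4 and related receptors signal, stood at 103 CPM in tumour and 167 CPM in lymph node, a ratio of 0.617 (0.577 to 0.660). Of 7 activating partners 1 was higher, 3 lower and 3 between (median log2 0.23), beside the same 13.2% and 7.7%. The costimulatory gene Icos was 2.72-fold higher, Cd226 stood at 28.7 CPM in tumour and 14.9 CPM in lymph node, and the ratios of Slamf6, Cd96 and Tnfsf14 were 0.282, 0.303 and 0.351.

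Other inhibitory genes had 6 of 10 measured members higher, 0 lower and 4 between (median log2 1.6), beside 13.2% of all genes higher and 7.7% lower. Lilrb4a had 657 UMIs in tumour and 3 in lymph node, a ratio of 140 (47.8 to 682), and Klrg1 and Ctla4 were 6.74-fold and 6.46-fold higher. Pglyrp1, which encodes a secreted peptidoglycan recognition protein, was 6.13-fold higher. Of 17 measured genes listed as relatives or candidate regulators of Tox, 9 were higher, 2 lower and 6 between (median log2 1.12), beside the same shares of all genes. Whether any of them regulates Tox in these cells was not tested. The transcription factor genes Bhlhe40, Tbx21 and Nr4a2 had ratios of 18.5 (15.3 to 22.7), 16.5 (10.95 to 25.9) and 13.7 (8.99 to 21.7), while Tcf7 had a ratio of 0.0495 (0.0411 to 0.0592). Tox2, the closest relative of Tox among those measured, stood at 2.76 CPM in tumour and 7.02 CPM in lymph node.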

How the data were processed

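Cells sorted from 1 B16 tumour library and 1 lymph node library were profiled with the 10x Chromium 3′ assay. The authors deposited raw counts, the whole number of UMIs of each gene in each barcode, without normalization or filtering of barcodes. Cell Ranger and mm10 were used, per the submitters' processing notes, and no source used here names the Cell Ranger version or the annotation. The libraries held 23618037 UMIs in tumour and 14000036 in lymph node, of which the cells used here held 70.6% and 76.3%.

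A cell had at least 3834 (tumour) or 1811 (lymph node) UMIs, set at 10% of the 99th percentile among the 3000 deepest barcodes, at least 200 genes, at most 10% mitochondrial UMIs, fewer than 20 UMIs of Pmel, Dct and Mlana, fewer than 3 of C1qa, C1qb and Lyz2 and fewer than 2 of Cd79a and Ms4a1. Doublets were kept. Counts were summed per library and divided by their total (CPM). Intervals are exact (conditional-binomial for ratios, Clopper-Pearson for shares, Poisson for sums) and treat UMIs or cells as independent. For a share of 0, the limit is that of 3 counts. For shares, receptor number and pairs, each cell was thinned without replacement with a fixed seed. The 2-fold counts used genes with at least 50 UMIs, and pathway lists those with at least 20. Scripts used Python 3.11.15, NumPy 2.4.6, SciPy 1.17.1, edgeR 4.0.16 (TMM factors only) and DESeq2 1.42.0 (size factors only), and were tested on simulated data.

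The members and all gene lists were chosen with earlier results of these data known. Named genes were the 10 members, up to 4 genes per pathway list by the interval bound nearest to 1, direct ligands of a described receptor, the 10 genes per library most like the receptor number, the scale genes and up to 2 genes per marker list. Genes named outside this, chosen after their values were seen, were Cd8b1, Cd40lg, Il2, Il4, Cd226, Tox2, Ptpn6 and Ptpn11, and the leaders of the order by lower bound. All Treg markers were also named in the comparison by receptor number, after their values were seen. Alternatives covered scaling, depth, the random seed, cell limits and cell subsets. Some genes of the lists are not reported here by name.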

Additional observations from a re-analysis of the deposited data

Results flagged for a closer look

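Sh2d1a, the SAP adaptor gene, had ratios by receptor number on opposite sides of 1 in the 2 tissues in the main thinning. At 1811 UMIs per cell, the ratio of Sh2d1a UMIs per cell in cells with at least 2 receptors over cells with none was 0.690 in tumour (0.472 to 0.985, from 38 and 173 UMIs) and 2.53 in lymph node (1.98 to 3.22, from 80 and 490 UMIs). It was singled out because the 2 counting intervals lie on opposite sides of 1, which held for 20 of 4635 genes and, among those 20, for no other gene of the lists. Taken singly, intervals lay below 1 for 4.95% and above 1 for 5.6% of tumour genes. In lymph node these shares were 2.78% and 10.6%. The intervals that chose the gene give no separate support. The difference between the tissues was not tested, and each side rests on 1 library. Over 100 random thinnings, chosen after seeing the data, the tumour ratio averaged 0.823 (0.525 to 1.20) and was above 1 in 11, while the lymph node ratio averaged 2.30 (1.73 to 2.86). At 3834 UMIs the averages were 0.761 in tumour, above 1 in 0 of 100, and 1.94 in lymph node.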

How the results depend on the processing

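Each of the 9 members other than Cd244 kept its direction under the 11 alternatives for its level, and Cd244 was reversed (0.273) in cells with a Foxp3 UMI. The counts of members at least 2-fold apart were 4 higher and 4 lower in those cells and 5 or 6 higher and 3 lower otherwise. The number of adaptors higher was 0 with TMM or median-of-ratios scaling or with the UMI limits doubled. The number of activating partners higher was 2 by the mean of per-cell CPM, after thinning, without mitotic cells and without the 5% deepest cells. The number of other inhibitory genes lower was 1 in the first 3 of these settings. In cells with a Foxp3 UMI, tumour and lymph node cells held 0.861 and 0.408 receptors on average, 4.51% and 2.37% held at least 3, and the Tox ratio of these over cells with none was 1.22 and 1.30. In tumour the mean was 0.764 without mitotic cells and 0.664 with the limits doubled, where 1.99% held at least 3 and the Tox ratio was 1.68. That ratio was 1.55 with no limits on other cell types and 1.49 with at most 5% mitochondrial UMIs. Each set of cells was thinned anew, and redraws of all tumour cells of the rule moved this ratio between 0.796 and 3.92. No redraws were made within the other sets, so this range gives no spread for them. The part of the cells chosen was not tested. Thinned to 3834 UMIs, the means were 1.19 in tumour and 0.559 in lymph node, 10.2% and 1.80% held at least 3 receptors, and the lymph node pair ratio was 1.36. Of the 10 genes most like the receptor number, 2 in tumour and 3 in lymph node were shared at that depth, 3 and 3 with another seed, and 3 and 6 by the order on the lower bound. The causes were not tested. No paired analysis was possible because each group has 1 library. Depth limits Cd244, Tigit and Havcr2 in lymph node, with 5, 25 and 27 UMIs.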

Other observations

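The genes that followed receptor number overlapped in part between the tissues. Of 4635 genes measured in both libraries at 1811 UMIs, 88 had intervals above 1 in both for cells with at least 2 receptors over cells with none, and 56 had intervals below 1 in both. Among the 88 were Tox, the TNF receptor genes Tnfrsf4 (1.77 in tumour and 2.95 in lymph node) and Tnfrsf9 (1.70 and 6.19), the ectoenzyme gene Nt5e (2.64 and 2.88), the decoy IL-1 receptor gene Il1r2 (2.36 and 14.7) and Nkg7 (2.51 and 10.5), named after their values were seen. At the low end, in tumour, stood Uhrf1 (0.185) and Stmn1 (0.50) among others. In lymph node it held Ly6c1 (0.0321), Satb1 (0.229), S1pr1 (0.348), Klf2 (0.353) and Igfbp4 (0.396).

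Barcodes set aside by the limits on other cell types held some members too. In 3 tumour barcodes with macrophage transcripts, the share expected at 1811 UMIs was 13.9% for Havcr2 and 8.71% for Cd200r1. In lymph node 9 barcodes with B cell transcripts held 7 Btla UMIs in 5 barcodes and 4 Cd200 UMIs in 4.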
